A study of Mus musculus with 20 samples.

Results

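Collagens are the main structural proteins of the extracellular matrix, and this report describes how the 44 genes that encode their chains were expressed in the kidney and liver of mice given the BET bromodomain inhibitor JQ1. The genes were taken by symbol, as every gene named Col followed by a chain number with at least 1 protein-coding transcript, which selected 44 of the 55642 genes in the deposited tables. The mice were males of the inbred strain DBA/2J. Each was injected intraperitoneally once a day over 3 weeks, either with JQ1 (50 mg/kg) or with vehicle alone. Tissue came from 10-week-old mice at the end of dosing (treatment) or from 16-week-old mice 6 weeks after the last dose (recovery). Each organ had 10 libraries, namely 3 of JQ1 treatment, 3 of JQ1 recovery, 3 of vehicle at 10 weeks and 1 of vehicle at 16 weeks. The 4 vehicle libraries of an organ formed its control. A supplementary legend disagrees with the labels on how many vehicle mice belong to each age and on the length of recovery, and the labels were followed here. All of these mice, controls included, were injected daily for the same time, and JQ1 was given to the whole animal, so that no cell type was targeted. The libraries address whether transcription in these organs was altered during dosing and after withdrawal. The labels number the libraries without naming the animals, so the p-values measure the spread between libraries.

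Collagen chains wind around each other into a triple helix, which needs prolyl and lysyl hydroxylation in the endoplasmic reticulum before secretion. Fibrillar collagens (types I, III and V among them) form the load-bearing fibers of interstitial matrix and are made mainly by fibroblasts, whereas type IV collagen forms the sheet-like network of basement membranes. In the kidney the glomerular basement membrane depends on the alpha-3, alpha-4 and alpha-5 chains of type IV, and in the liver hepatocytes are a known source of type XVIII, the precursor of endostatin. The 44 genes comprised 11 fibrillar, 6 basement membrane (type IV), 6 beaded filament (type VI), 9 fibril-associated (FACIT), 4 transmembrane, 3 short-chain, 2 multiplexin and 3 anchoring fibril or other collagens.

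Library totals ranged from 13952510 to 26895318 reads in kidney and from 11968500 to 17529910 in liver. Levels are given as CPM, the counts divided by library size and scaled by TMM factors within an organ, and as TPM, which also divide by transcript length, where genes are compared with each other. Liver recovery replicates 2 and 3 carried kidney transcripts. In CPM from library totals alone, Kap, a proximal tubule gene, stood at 21.4% and 12.9% of its mean in kidney controls. The other 8 liver libraries lay at or below 0.123%. The summed hepatocyte markers of these replicates were 23910 and 47460 CPM, against 55070 to 85400 CPM in the other liver libraries. In kidney, treatment replicate 1 stood apart, with all 8 adipocyte, all 3 mesothelium and 7 of 9 fibroblast markers at their highest among the 10 kidney libraries. Values without these libraries stand beside the members that rest most on them.

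In vehicle kidney the basement membrane genes led the collagens on the TPM scale. Col4a1 (alpha-1 of type IV) had 27.8 ± 2.5 TPM (SD, n = 4), followed by Col4a4 with 19.5 ± 2.2 TPM and Col1a2 with 16.8 ± 3.3 TPM. The full-length Col4a1 transcript alone had 20.1 to 21.3 TPM in these controls, overlapping Col4a4 at 16.9 to 21.3 TPM. Col27a1, a fibrillar collagen of cartilage and other tissues, had 10.4 ± 2.5 TPM. The next 5 places, held by Col18a1, Col4a3, Col14a1, Col4a2 and Col3a1, lay between 6.36 and 7.22 TPM, and the libraries of these genes overlapped. In vehicle liver Col18a1 led with 18.6 ± 1.6 TPM, and its lowest control library, at 17.0 TPM, lay above every other collagen. Col14a1 followed with 3.35 ± 0.31 TPM, and Col1a2, Col13a1, Col27a1, Col3a1 and Col4a1 lay between 1.96 and 2.65 TPM with overlapping libraries. In liver controls 68.3% of the Col13a1 TPM was assigned to a transcript of 713 bases. Summed over all members, TPM ranged from 124 to 149 in kidney controls and from 37.4 to 42.0 in liver controls. Over all 10 liver libraries the highest sum was 67.2 TPM, in recovery replicate 2, which carried kidney transcripts.

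**Figure D1:**
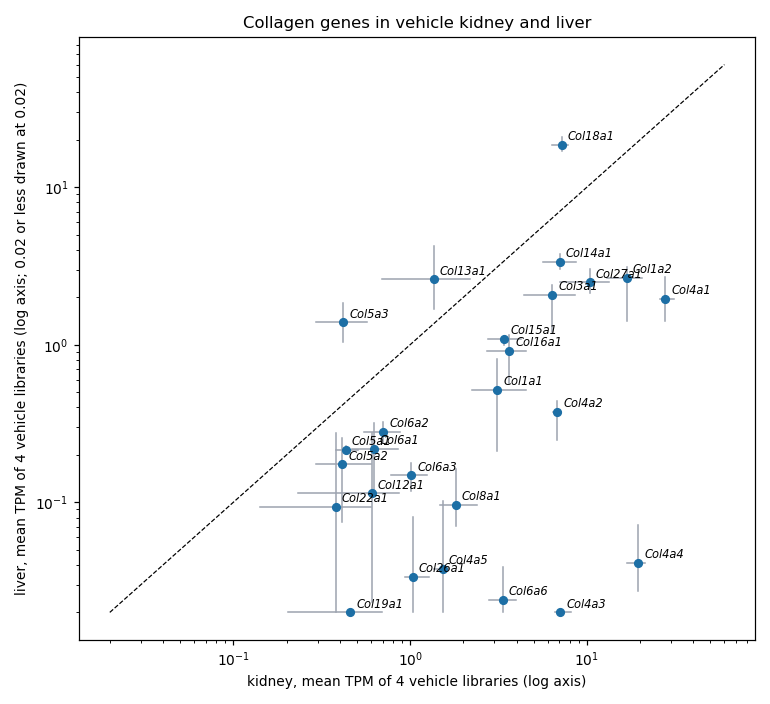
Mean TPM of collagen genes in 4 vehicle kidney libraries (horizontal, log axis) against 4 vehicle liver libraries (vertical, log axis), for the 26 members with at least 0.3 TPM in either organ. Gray lines run from the lowest to the highest library, the dashed line marks equal TPM, and liver values at or below 0.02 are drawn at 0.02; Col18a1, Col13a1 and Col5a3 lie on the liver side, and Col4a3, Col4a4, Col4a5 and Col6a6 lie far on the kidney side.

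A total of 32 members had enough reads to be tested in kidney and 24 in liver. Col9a1, a chain of cartilage type IX collagen, had 0 reads in all 20 libraries. Col2a1, Col6a4, Col8a2, Col9a2, Col9a3, Col10a1, Col11a1, Col17a1, Col20a1, Col24a1 and Col28a1 had reads below the filter in both organs, and no change was detectable for them at this depth. Col4a3, Col4a5, Col4a6, Col7a1, Col19a1, Col22a1, Col23a1 and Col26a1 were tested in kidney and were below the filter in liver.

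Between the organs, 22 of the 32 members tested differed in vehicle mice, 15 higher in kidney and 7 higher in liver (edgeR quasi-likelihood test, adjusted p below 0.05). Of all 17710 genes 61.8% passed the same test, 32.1% higher in kidney and 29.6% higher in liver, and 64.9% had an unadjusted p below 0.05 against 23 of the members. The 22 calls are a description beside that background. TMM scaling over both organs shifted kidney against liver by 0.857 on the log2 scale relative to library totals alone, under which 24 members were called, 21 higher in kidney and 3 higher in liver. Under library totals alone 78.9% of all genes were called. The CPM values given for this comparison carry the TMM scaling.

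The glomerular type IV chains were higher in kidney. Col4a3 averaged 58.3 ± 4.4 CPM in kidney and 0.0911 ± 0.135 CPM in liver controls (fitted log2 difference 9.28 ± 1.14 (SE), adjusted p = 4.39e-06), where the liver value rests on 4 reads in all. Col4a4 averaged 169 ± 14 CPM against 1.14 ± 0.47 CPM (7.22 ± 0.91, adjusted p = 5.76e-06), and Col4a5 averaged 6.07 ± 0.37 CPM against 0.334 ± 0.389 CPM. Col6a6, a type VI chain, was higher in kidney by 5.54 ± 0.66 on the log2 scale. Col26a1 had 2.16 ± 0.36 CPM in kidney and 2 reads in all over the liver controls. Col19a1, a fibril-associated collagen, had no read in the 4 liver control libraries and 2.45 ± 1.12 CPM in kidney, at least 37.7-fold higher against a floor of 3 reads over those libraries. The widely expressed pair Col4a1 and Col4a2 was higher in kidney by a smaller 2.49 ± 0.26 and 2.69 ± 0.26.

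Toward liver, Col18a1 had the firmest difference, with 255 ± 3 CPM in liver and 35.6 ± 3.5 CPM in kidney (log2 difference -2.84 ± 0.11, adjusted p = 1.12e-14). Col5a3 (type V, alpha-3) averaged 23.2 ± 5.4 CPM in liver against 2.51 ± 0.67 CPM (-3.20 ± 0.56), and the transmembrane Col13a1 averaged 4.98 ± 1.68 CPM against 1.17 ± 0.25 CPM (-2.08 ± 0.28). Col6a5 and Col25a1 were higher in liver by 2.21 and 2.16 in log2 size at means below 1.4 CPM, and both calls were lost without TMM factors. Col14a1, which binds fibril surfaces, was higher in liver by 0.54 in log2 size under TMM (adjusted p = 0.00907) but turned to 0.32 higher in kidney with library totals alone (adjusted p = 0.0591), so its direction between organs depends on the scaling.

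The widely expressed type IV chains were higher in JQ1-treated kidney. Against control, 3 of the 32 members tested were called, Col4a1, Col4a2 and Col6a2, all higher and none lower, while 4.13% of all 17158 genes were called in either direction, 1.4% higher and 2.73% lower. The median log2 difference was 0.33 over the members tested and -0.01 over all genes. An unadjusted p below 0.05 was found for 15 of 32 members, against 17.1% of all genes. These values include treatment replicate 1, the library that stood apart. Without it 1 member (Col4a1) and 2.79% of all genes were called. In that fit Col4a1, Col4a2, Col4a3, Col4a4, Col5a2 and Col6a2 were higher with an unadjusted p below 0.05. Col5a3, Col6a6, Col15a1 and Col19a1 were lower with an unadjusted p below 0.05. With library totals alone, which moved the median of all genes to -0.10, the calls were 2 higher (Col4a1 and Col6a2) and 1 lower (Col19a1), and with counts scaled from TPM by transcript length no member was called. Of all genes 4.92% and 2.51% were called in these fits, in that order.

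Col4a1 had 236, 208 and 229 CPM in treatment replicates 1, 2 and 3 against 178, 189.7 and 172 CPM in the vehicle libraries of 10 weeks and 177 CPM in that of 16 weeks. Every treated library lay above every control, and all 3 recovery libraries, at 155 to 172 CPM, lay at or below the lowest control. The difference was 0.33 ± 0.07 on the log2 scale (SE, adjusted p = 0.00817). Without treatment replicate 1 it was 0.29 ± 0.07 (adjusted p = 0.0401), and without replicate 3 it was 0.31 (adjusted p = 0.0508). With library totals alone it was 0.23 (adjusted p = 0.0481), and with counts scaled from TPM it was 0.19 (adjusted p = 0.308).

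Col4a2 pairs with Col4a1 in the common type IV trimer. It had 67.2, 71.0 and 68.0 CPM in the treated libraries and 52.9 to 58.8 CPM in the controls, without overlap. The difference was 0.29 ± 0.07 (adjusted p = 0.0321), and it passed the threshold in 3 of the 7 fits that left out 1 library, with adjusted p from 0.0516 to 0.0954 without treatment replicate 1, 2 or 3 or vehicle replicate 3 of 10 weeks. Libraries without overlap were found for 6.85% of all genes in the higher and 8.3% in the lower direction.

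Col4a1 and Col4a2 are neighbours that are read in opposite directions, and their start regions are printed because both genes were called in the same direction. In RefSeq (build GRCm38.p6) the Col4a1 window spans chr8:11312777-11313076 on the minus strand and the Col4a2 window chr8:11312555-11312854 on the plus strand, each from 250 bases before to 50 bases after the start. The starts lie 21 bases apart and the windows share 78 bases, read in opposite directions. Capitals mark the letters CCAAT, the GC box letters GGGCGG and the TATA box letters TATAAA wherever their letters stood on either strand, and no marked stretch overlaps another.
Col4a1: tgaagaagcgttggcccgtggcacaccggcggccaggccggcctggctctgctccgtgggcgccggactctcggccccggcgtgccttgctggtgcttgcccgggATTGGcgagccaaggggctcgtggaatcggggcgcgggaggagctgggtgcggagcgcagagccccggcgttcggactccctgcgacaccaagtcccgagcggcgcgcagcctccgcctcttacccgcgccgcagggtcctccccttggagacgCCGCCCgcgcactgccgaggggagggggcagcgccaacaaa
Col4a2: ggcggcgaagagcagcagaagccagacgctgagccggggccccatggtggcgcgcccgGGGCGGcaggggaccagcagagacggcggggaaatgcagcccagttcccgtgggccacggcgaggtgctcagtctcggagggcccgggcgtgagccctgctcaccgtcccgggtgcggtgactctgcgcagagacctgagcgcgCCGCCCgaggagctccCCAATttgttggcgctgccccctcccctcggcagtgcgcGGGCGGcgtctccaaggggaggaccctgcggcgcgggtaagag
The Col4a1 window held 1 CCAAT and 1 GGGCGG, and the Col4a2 window held 1 CCAAT and 3 GGGCGG, with TATAAA in neither. Of all 32851 RefSeq windows, 37.4% held CCAAT, 35.7% GGGCGG and 13.6% TATAAA, and of the 38 windows that matched 35 of the 44 members, 13, 23 and 5 did so. These letters describe the windows and were not tested as binding sites.

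The ratio of Col4a1 to Col4a2 reads averaged 1.71 ± 0.14 on the log2 scale in treated kidney and 1.67 ± 0.06 in controls, a difference of 0.04 (exact permutation test, two-sided, p = 0.629, n = 3 and 4). On the TPM scale the difference of the ratio was -0.10. Between 0.971% and 2.54% of Col4a1 reads in each kidney library were assigned to short transcripts other than the full-length one, yet these made up 15.0% to 31.9% of its TPM, since TPM weights by length. The TPM of the full-length Col4a1 transcript alone was 22.6 to 24.0 in treated libraries and 20.1 to 21.3 in controls. Over all its transcripts Col4a1 had 27.3 to 30.8 TPM in treated libraries and 25.8 to 31.3 TPM in controls, with overlap. Col4a2 had 7.066 to 8.002 TPM in treated libraries and 6.438 to 7.114 TPM in controls, also with overlap. The separation of the groups in both genes therefore holds in CPM and not in gene-level TPM.

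On the CPM scale the glomerular type IV chains lay higher without passing the threshold. Col4a3 had 124, 84.4 and 116 CPM in the treated libraries and 70.1 to 84.7 CPM in controls (0.50 ± 0.13, adjusted p = 0.0597, and 0.39 ± 0.14 with adjusted p = 0.206 without replicate 1). Treatment replicates 1 and 3 were above every control and replicate 2 within their range. Its partners differed less, Col4a4 by 0.15 ± 0.07 and Col4a5 by 0.25 ± 0.16, with overlapping libraries. In TPM the treated and control means were 19.3 and 19.5 for Col4a4, and 1.51 and 1.53 for Col4a5. For Col4a3 they were 8.81 and 7.08 TPM. The sum of the 6 type IV genes was 676, 605 and 691 CPM in treated kidney, 510.2 to 568 CPM in controls and 544 to 589 CPM in recovery. The log2 ratio of the treated to the control mean of that sum was 0.28 in CPM and 0.07 in TPM. The summed podocyte markers were 143 to 146 CPM in treated libraries and 123 to 150.1 CPM in controls, and endothelial markers were 351 to 379.8 and 366 to 389 CPM.

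**Figure D2:**
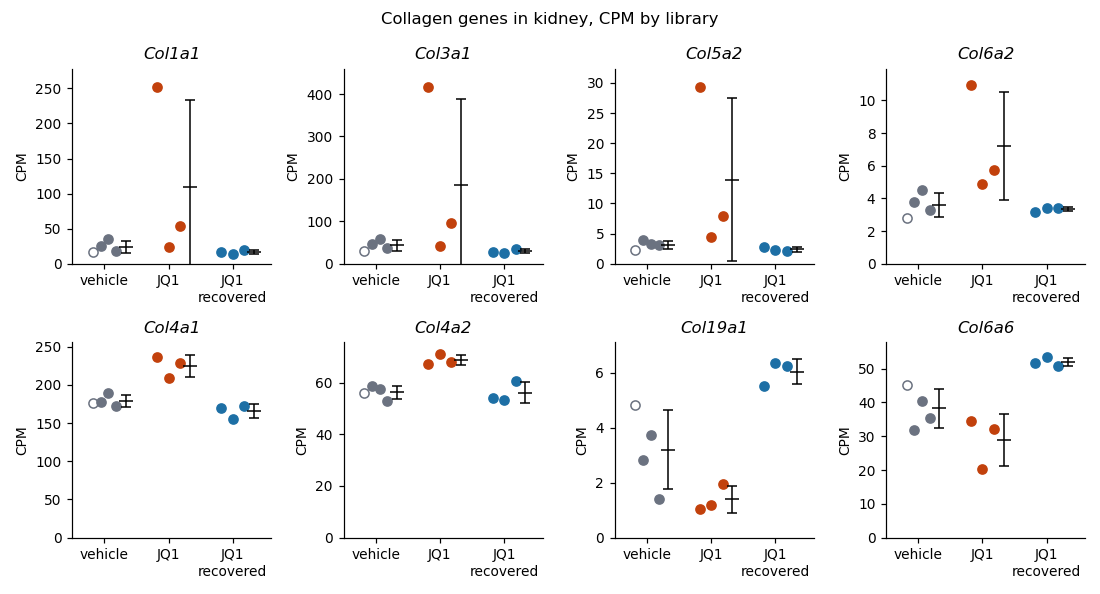
CPM of 8 collagen genes in each kidney library by group, with filled circles for libraries, an open circle for the vehicle library at 16 weeks, and black bars for the mean ± SD of 4 vehicle, 3 JQ1 and 3 recovered libraries. Each axis starts at 0, where the lower arm of a wide bar is cut; the Col4a1 and Col4a2 points of JQ1 lie together above the vehicle points, whereas 1 JQ1 library holds the highest values of Col1a1, Col3a1 and Col5a2.

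None of the 8 fibrillar collagens tested was called by edgeR, and their highest values came from 1 library. Col1a1, which with Col1a2 forms type I collagen, had 252, 24.0 and 54.4 CPM in treatment replicates 1, 2 and 3, and 17.0 to 35.1 CPM in controls. Replicate 1 was the highest kidney library, replicate 3 lay above all controls, and replicate 2 lay among them. The fitted log2 difference was 2.20 ± 0.76 (adjusted p = 0.196), and without replicate 1 it was 0.72 ± 0.41 (adjusted p = 0.533). DESeq2 called Col1a1, Col3a1 and Col5a2 higher with all libraries, among 9 members and 3.51% of all genes.

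The other major fibrillar chains had the same order of libraries. Col3a1 (type III) had 416, 42.5 and 95.6 CPM against 29.1 to 58.6 CPM in controls (2.10 ± 0.72, adjusted p = 0.196). Col1a2 had 599, 117 and 201 CPM against 87.0 to 140.1 CPM (1.42 ± 0.52, adjusted p = 0.219). Without replicate 1 the differences were 0.67 ± 0.39 (adjusted p = 0.534) for Col3a1 and 0.48 ± 0.26 (adjusted p = 0.505) for Col1a2. In both genes replicate 3 exceeded every control and replicate 2 did not. Col5a2 (type V), the neighbour of Col3a1, had 29.4, 4.44 and 7.94 CPM against 2.36 to 3.86 CPM, with all 3 treated libraries above the controls (2.13 ± 0.62, adjusted p = 0.122). Without replicate 1 its difference was 0.97 ± 0.26 (adjusted p = 0.0517). Summed over the 11 fibrillar genes, replicates 1, 2 and 3 had 1388, 269 and 432 CPM, controls 206 to 315 CPM and recovery 189.6 to 208 CPM.

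The RefSeq start windows of Col1a2 (chr6:4505368-4505667, plus strand) and Col3a1 (chr1:45311288-45311587, plus strand) are shown for comparison with the type IV pair, with the same capitals. Col1a1 had no window in the table.
Col1a2: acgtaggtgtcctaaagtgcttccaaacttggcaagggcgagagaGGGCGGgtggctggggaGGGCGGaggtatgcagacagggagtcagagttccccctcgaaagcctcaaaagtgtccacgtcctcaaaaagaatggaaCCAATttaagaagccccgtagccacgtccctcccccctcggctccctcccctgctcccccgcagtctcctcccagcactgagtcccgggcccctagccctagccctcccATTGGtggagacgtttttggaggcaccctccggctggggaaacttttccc
Col3a1: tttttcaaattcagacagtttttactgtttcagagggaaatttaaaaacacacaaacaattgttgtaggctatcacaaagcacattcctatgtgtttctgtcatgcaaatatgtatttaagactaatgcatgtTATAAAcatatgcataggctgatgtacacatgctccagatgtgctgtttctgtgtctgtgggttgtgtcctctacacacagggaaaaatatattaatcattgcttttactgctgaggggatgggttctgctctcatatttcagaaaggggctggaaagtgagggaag
The Col1a2 window held 2 CCAAT and 2 GGGCGG, and the Col3a1 window held 1 TATAAA and neither of the others.

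Markers of connective and fat tissue moved with replicate 1. The 9 fibroblast markers summed to 352 CPM in replicate 1, 117 CPM in replicate 2 and 127 CPM in replicate 3, against 131 to 167 CPM in controls. The 8 adipocyte markers summed to 758, 98.2 and 261 CPM against 134 to 395 CPM, and the 3 mesothelium markers to 11.5, 3.17 and 4.18 CPM against 2.73 to 3.72 CPM. Smooth muscle and pericyte markers, at 96.1 to 102 CPM in treated libraries and 97.1 to 109 CPM in controls, did not follow. In replicate 3, where Col1a1, Col1a2 and Col3a1 exceeded all controls, fibroblast markers lay below every control, adipocyte markers within the control range and mesothelium markers above every control. The part of these cells in the collagen values was not tested, and in bulk tissue more cells of a type and more RNA per cell cannot be told apart. Within replicate 1, 18 of the 32 members tested had their highest kidney value, among them 6 of 8 fibrillar, 4 of 6 type IV and 4 of 5 type VI genes. The share of all genes with their highest value in this library was not counted, so these counts have no background beside them.

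**Figure D3:**
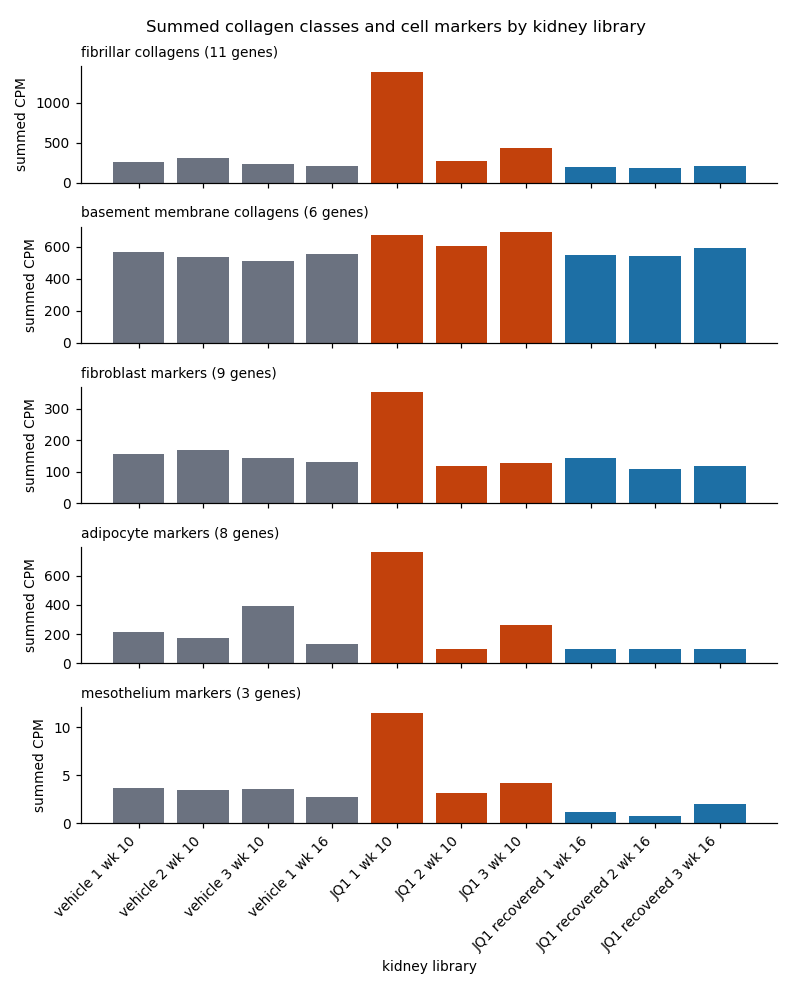
Summed CPM by kidney library (bars from 0) for the fibrillar and basement membrane collagens and for the fibroblast, adipocyte and mesothelium marker lists, colored by vehicle (gray), JQ1 (orange) and recovered (blue). Fibrillar collagens reach 1388 CPM in JQ1 library 1 together with all 3 marker lists, whereas basement membrane collagens lie at 605 to 691 CPM in all 3 JQ1 libraries.

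Among the type VI genes, whose chains form the beaded filaments next to cell surfaces, Col6a2 was called. It had 11.0, 4.89 and 5.76 CPM in the treated libraries and 2.78 to 4.50 CPM in controls, without overlap (1.00 ± 0.25, adjusted p = 0.0292). Without replicate 1 the difference was 0.57 ± 0.23 (adjusted p = 0.233), and the call was also lost when vehicle replicate 1 or 3 of 10 weeks or the vehicle library of 16 weeks was left out, with adjusted p from 0.0632 to 0.08. Its partners Col6a1 (0.78 ± 0.35, adjusted p = 0.276) and Col6a3 (0.46 ± 0.18, adjusted p = 0.179) had their highest value in replicate 1 as well, and without it differed by 0.09 ± 0.26 and 0.20 ± 0.16. The multiplexins of basement membrane zones, Col15a1 and Col18a1, lay below control by 0.30 and 0.13 in log2 size, with adjusted p of 0.361 and 0.491. Col14a1 differed by 0.51 ± 0.24 (adjusted p = 0.335) and by 0.19 ± 0.15 without replicate 1, with replicate 1 at 80.9 CPM and every other kidney library between 33.2 and 51.0 CPM.

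**Figure D4:**
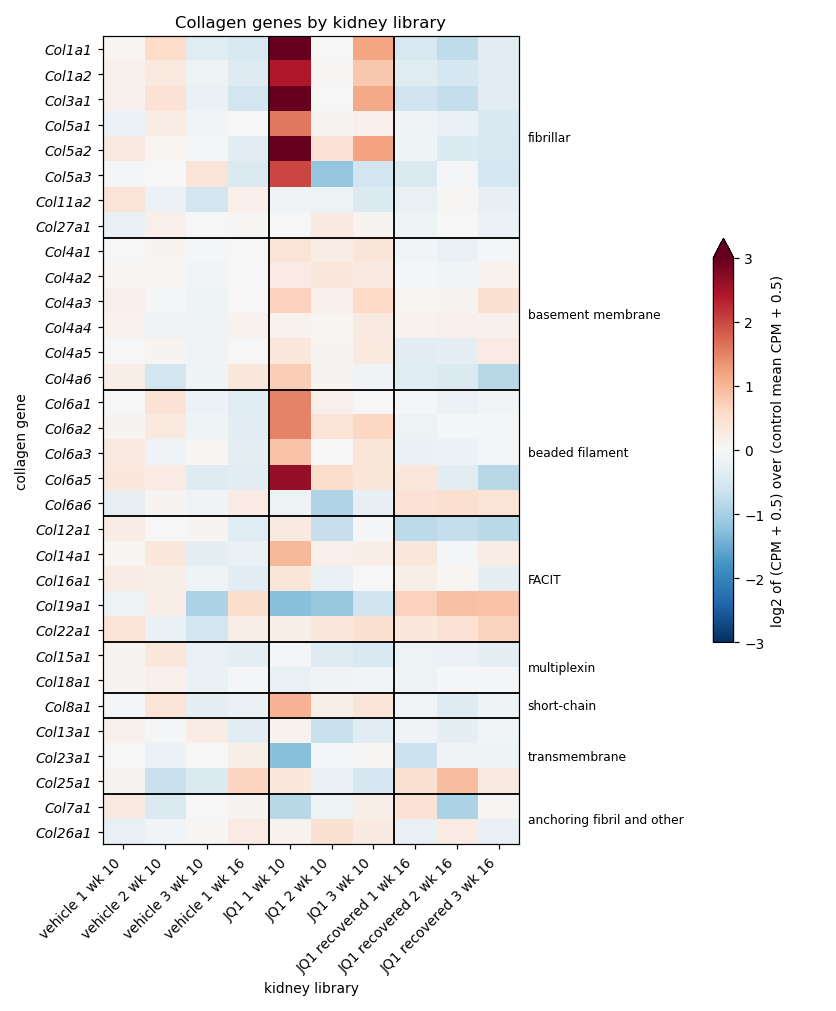
Log2 of (CPM + 0.5) over the control mean (CPM + 0.5) for the 32 collagen genes tested in kidney (rows, grouped by class) in each of 10 kidney libraries (columns; 4 vehicle, 3 JQ1, 3 recovered). Red is above and blue below the control mean, with the darkest red at 3 or more; Col1a1, Col3a1 and Col5a2 are darkest in JQ1 library 1, Col4a1 and Col4a2 are pale red in all 3 JQ1 libraries, and Col19a1 is blue in JQ1 and red in recovered libraries.

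Of the enzymes and partners of collagen, 3 genes were called in treated kidney, where 4.13% of all genes were called. Plod2, a lysyl hydroxylase that modifies collagen before cross-linking, was the 1 gene called of 19 tested in the folding and secretion list, with 59.8 ± 6.9 CPM against 40.1 ± 1.6 CPM (0.57, adjusted p = 0.000382). Timp3, a matrix-bound inhibitor of metalloproteinases, was lower, at 1851 ± 99 CPM against 2472 ± 179 CPM (-0.42, adjusted p = 0.00268), the 1 call of 11 in the breakdown list. Ddr1, a collagen receptor kinase, was lower by 0.29 in log2 size (adjusted p = 0.0244), the 1 call of 6 receptors, and its call was lost without treatment replicate 1 or 2 or without vehicle replicate 1 or 2 of 10 weeks (adjusted p from 0.0554 to 0.0957). None of 12 propeptide removal and cross-linking genes, 15 fibril partners or 17 basement membrane partners tested was called with edgeR, though 4, 2 and 6 of them had an unadjusted p below 0.05. Of all genes 17.1% had an unadjusted p below 0.05. The median log2 difference was 0.50 over the fibril partners and 0.38 over the cross-linking list. The fibril partners summed to 1065, 508 and 489 CPM in replicates 1, 2 and 3 against 437 to 546 CPM in controls, and the cross-linking list to 228, 151 and 140.3 CPM against 129 to 147 CPM. Replicate 1 was the highest kidney library in both sums. Dcn, Lum and Dpt stand both among the fibril partners and among the fibroblast markers.

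After 6 weeks without JQ1, no member of 32 was called against control in kidney, and 0.00583% of all genes, or 1 gene, was called. An unadjusted p below 0.05 was found for 3 of 32 members, against 9.16% of all genes, and DESeq2 called 0 of the members and 0.39% of all genes. Col12a1, a fibril-associated collagen, had 2.46 to 2.66 CPM in recovery and 3.52 to 5.58 CPM in controls (-0.88 ± 0.25, adjusted p = 0.283). Col19a1 had 5.51 to 6.34 CPM in recovery and 1.40 to 4.83 CPM in controls (0.92 ± 0.31, adjusted p = 0.375), and Col6a6 had 50.8 to 53.4 CPM against 32.0 to 45.1 CPM (0.44 ± 0.16, adjusted p = 0.447). In both Col19a1 and Col6a6 the highest control was the single vehicle library of 16 weeks, the age of the recovery mice. The lowest Col12a1 control, at 3.52 CPM, was that same library. With a single control library of that age, age and recovery from JQ1 cannot be told apart in these values. In treated kidney Col19a1 had 1.04, 1.195 and 1.94 CPM (-1.19 against control, adjusted p = 0.068). Libraries without overlap were found for 5.26% of all genes in the higher and 5.2% in the lower direction.

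Compared directly, treated and recovered kidneys differed in 5 of 32 members, 3 higher and 2 lower in treatment, where 7.31% of all genes were called, 2.41% higher and 4.91% lower. DESeq2 called 12 members and 5.62% of all genes. Col4a1 (0.44 ± 0.07, adjusted p = 0.000996), Col4a2 (0.29 ± 0.08, adjusted p = 0.0306) and Col6a2 (1.09 ± 0.27, adjusted p = 0.0197) were higher in treatment. The treated libraries are those of the comparison with control, so these calls are not separate evidence. Col19a1 averaged 1.39 ± 0.48 CPM in treatment and 6.03 ± 0.45 CPM in recovery (-2.11 ± 0.36, adjusted p = 0.00172). Col6a6 averaged 28.9 ± 7.6 CPM against 52.0 ± 1.3 CPM (-0.86 ± 0.18, adjusted p = 0.0141), with 20.3 CPM in treatment replicate 2 as the lowest library. For Col19a1 and Col6a6 the controls lay between the groups on average, at 3.20 and 38.3 CPM. Age and time since dosing cannot be told apart in this comparison.

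Leaving out 1 library moved the number of members called between treated and recovered kidney from 2 (without recovery replicate 2) to 13 (without treatment replicate 2), and it was 3 without recovery replicate 1. Of all genes 3.83%, 7.67% and 4.18% were called in these fits. Without treatment replicate 1 it was 5, with Col5a2 in place of Col6a2. Col19a1 and Col4a1 passed the threshold in all 6 of these fits, whereas Col4a2 and Col6a2 each lost it in 4 and Col6a6 in 1 (without recovery replicate 2, adjusted p = 0.0633). Of the wider lists, Plod2 and Lamb1 were higher in treatment by 0.31 and 0.27, Adamts2, Pcolce2 and Tnc by 1.33, 1.27 and 1.72, and Timp3, Ddr1, Crtap and Lama1 were lower by 0.64, 0.37, 0.47 and 0.53 in log2 size. Of these 9 genes, Timp3 and Ddr1 kept the call in all 6 fits that left out 1 library. Adamts2 and Pcolce2, which act in removal of the procollagen propeptide, lost it without treatment replicate 1 (adjusted p = 0.118 and 0.141) and without each recovery replicate.

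In treated liver Col27a1 was higher, the 1 member called of 24 tested, where 0.495% of all 14559 genes were called. It had 58.2, 38.2 and 36.7 CPM in the treated libraries and 23.1 to 25.5 CPM in controls, with all treated libraries above all controls (0.85 ± 0.16, adjusted p = 0.0367). The call was lost in each of the 7 fits that left out 1 library, with adjusted p from 0.0834 to 0.214 and differences from 0.60 to 0.96. Its lowest value came without treatment replicate 1. In recovery Col27a1 had 44.97, 31.5 and 36.5 CPM, again above the controls but not called (0.61 ± 0.16, adjusted p = 0.129).

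The abundant liver collagens moved less. Col18a1 had 227, 236 and 273 CPM in treated liver and 191.0 to 197 CPM in controls (0.34 ± 0.13, adjusted p = 0.379). The 6 hepatocyte markers summed to 85400, 79540 and 77020 CPM in the same treated libraries and to 61200 to 66990 CPM in controls, without overlap. Their median log2 difference was 0.30, all 6 lay above 0 and none was called by edgeR (2 with an unadjusted p below 0.05), and their part in the Col18a1 values was not tested. The treated libraries of Col18a1 lay above all controls, as libraries did for 6.79% of all genes in that direction. Col14a1 had 40.2 to 43.6 CPM against 28.4 to 38.8 CPM (0.33 ± 0.12, adjusted p = 0.378). Col13a1 and Col15a1 lay below control by 0.88 and 0.45 in log2 size (adjusted p = 0.346 and 0.458), without overlap, which 6.13% of all genes had in the lower direction. Including Col27a1, 5 of 24 members had an unadjusted p below 0.05, against 9.53% of all genes, and no gene of the 6 wider collagen lists was called. Col1a1 had 5.28 to 9.70 CPM in treated liver and 2.604 to 10.4 CPM in controls (0.10 ± 0.46, adjusted p = 0.975).

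**Figure D5:**
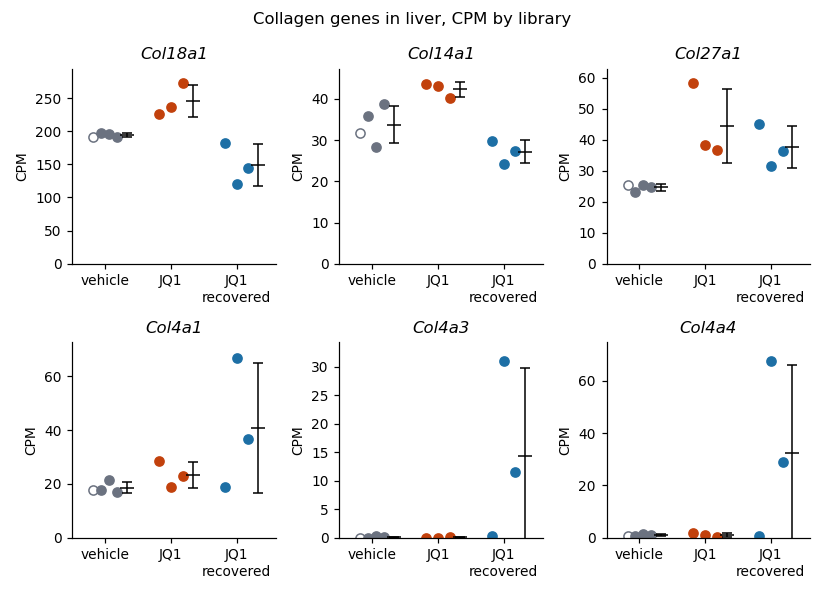
CPM of 6 collagen genes in each liver library by group, drawn as for kidney (open circle, vehicle at 16 weeks; black bars, mean ± SD of 4 vehicle, 3 JQ1 and 3 recovered libraries; axes from 0). Col18a1, Col14a1 and Col27a1 are above the vehicle points in JQ1, and Col4a3 and Col4a4 reach 31.0 and 67.7 CPM in the recovered library that carried the most kidney RNA, against 0.207 and 0.62 CPM in recovered library 1.

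In recovered liver the type IV values followed the kidney transcripts. Col4a3 had 0.207, 31.0 and 11.5 CPM and Col4a4 had 0.62, 67.7 and 29.1 CPM in replicates 1, 2 and 3, while no other liver library exceeded 0.217 and 1.74 CPM. Shares of the kidney control mean were taken in CPM from library totals alone, without TMM factors. In replicates 2 and 3, Col4a3 stood at 49.4% and 15.5% and Col4a4 at 37.2% and 13.5%. Of the proximal tubule genes, Kap stood at 21.4% and 12.9%, the phosphate transporter gene Slc34a1 at 46.2% and 12.3%, and Miox at 66.9% and 13.2%. Col4a1 had 18.8, 66.6 and 36.7 CPM against 17.2 to 21.5 CPM in controls, and Col6a6 and Col8a1 also had their highest liver values in replicate 2. In replicate 1, which carried little kidney RNA (Kap at 0.123%), Col4a1 lay among the controls.

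No member of 24 was called between recovered liver and control, where 0.0343% of all genes were called, 0.0137% higher and 0.0206% lower, although 8 of 24 had an unadjusted p below 0.05 against 16.7% of all genes and DESeq2 called 7 members and 2.85% of all genes. Without recovery replicate 1, the library with little kidney RNA, 9 members and 13.6% of all genes were called. Col18a1 was lower, and Col4a1, Col4a2, Col4a3, Col4a4, Col4a5, Col6a6, Col8a1 and Col19a1 were higher, these 8 being members called higher in kidney than in liver of vehicle mice. Leaving out replicates 2 and 3 would leave 1 recovery library, so no calls are given for that fit. Col18a1 had 182, 120.3 and 145 CPM in recovery against 191.0 to 197 CPM in controls (-0.37 ± 0.13, adjusted p = 0.175). Libraries lay below the controls without overlap in this way for 6.3% of all genes, and above them for 5.36%. The 3 recovery libraries had the same order in Col18a1 as in the hepatocyte markers, whereas in the 3 treated libraries the orders were opposite. In recovery the order of Kap was the reverse of both. The part of hepatocytes or of kidney RNA in the Col18a1 values was not tested.

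Treated against recovered liver gave 2 calls of 24, both higher in treatment, where 2.29% of all genes were called, 1.31% higher and 0.989% lower. Libraries without overlap, as in both members, were found for 11.5% of genes in the higher and 9.77% in the lower direction. Col18a1 averaged 245 ± 24 CPM in treatment and 149 ± 31 CPM in recovery (0.71 ± 0.14, adjusted p = 0.0204), and Col14a1 averaged 42.3 ± 1.8 CPM against 27.2 ± 2.8 CPM (0.63 ± 0.13, adjusted p = 0.0244). As in kidney, age and time since dosing cannot be told apart in this comparison. The 6 hepatocyte markers were all higher in treatment, with a median log2 difference of 0.70 and 1 of them called. Without recovery replicates 2 and 3, which leaves 1 recovery library, the differences of Col18a1 and Col14a1 were 0.42 and 0.50. With library totals alone, which moved the median of all genes from -0.02 to -0.25, Col18a1 was called higher (0.49, adjusted p = 0.0335) and Col14a1 was not called (0.41, adjusted p = 0.0757), while Col8a1 was called lower. Of all genes 3.72% were called with library totals alone. The calls of Col18a1 and Col14a1 were lost when any 1 treated library or recovery replicate 3 was left out, and 8 members and 13.9% of all genes were called without recovery replicate 1. Sparc, a collagen-binding matrix protein, was higher in treatment by 0.54, and Colgalt2, Ddr1, P4ha2 and Serpinh1 were lower by 2.23, 3.66, 2.80 and 1.11 in log2 size. With only recovery replicate 1 left, Sparc differed by 0.75. In that fit Colgalt2, Ddr1, P4ha2 and Serpinh1 differed by -1.09, -1.08, -2.23 and -0.75. The Sparc call was lost with library totals alone (0.29, adjusted p = 0.212) and with counts scaled from TPM (adjusted p = 0.0574). Of the 6 fits that left out 1 library, Sparc, Ddr1 and P4ha2 each lost the call in 4, and Colgalt2 and Serpinh1 in 5.

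Col18a1 reads were assigned almost entirely to 1 transcript in both organs. Transcript Col18a1-202 took 100% of its reads in kidney controls and 99.97% in liver controls. In GENCODE M21 (build GRCm38) it starts 52602 and 52843 bases upstream of Col18a1-201 and Col18a1-203 and also runs 1016 and 838 bases further at its other end, and which of these bases the reads covered was not tested. RefSeq lists 2 starts for the gene, 52825 bases apart.

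The effect of treatment was not shown to differ between kidney and liver for any member. The test of the difference itself called 0 of 32 members, where 0.169% of 17710 genes were called, 0.0339% toward kidney and 0.136% toward liver, and DESeq2 also called 0 members. At an unadjusted p below 0.05 there were 9 of 32, against 7.74% of all genes. Col27a1 lay toward liver (-0.72 ± 0.20, adjusted p = 0.230), as did Col18a1 (-0.46 ± 0.15, adjusted p = 0.407), and Col5a2 (2.13 ± 0.70, adjusted p = 0.405) and Col6a2 (1.27 ± 0.43, adjusted p = 0.409) lay toward kidney. P4ha2, a prolyl hydroxylase subunit, was called among the wider lists (2.24, adjusted p = 0.0327), and its call was lost in 12 of 14 fits that left out 1 library.

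The ratios of chains that share a trimer are given as values, since the design could not bring them past the threshold. The 31 exact permutation tests (two-sided) of 5 log2 read ratios had smallest possible p values of 0.0571, 0.1 and 0.0286 for 3 against 4, 3 against 3 and 4 against 4 libraries, before adjustment. In treated kidney Col1a1 over Col1a2 was -1.81 ± 0.52 against -2.29 ± 0.21 in controls (p = 0.114, exact, n = 3 and 4), and Col4a3 over Col4a4 was -1.20 ± 0.26 against -1.54 ± 0.08 (p = 0.114, exact, n = 3 and 4). Col6a1 over Col6a2 differed by -0.31 (p = 0.229, exact) and Col6a3 over Col6a1 by -0.19 (p = 0.571, exact), the latter turning to 0.09 without treatment replicate 1.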

How the data were processed

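Kidney and liver poly(A) RNA from 20 mouse libraries was sequenced by the authors as single-end reads. Per the labels and the methods, the authors trimmed reads with fastp (0.20.1) and quantified transcripts with Salmon (1.10.0). The deposited tables hold estimated counts and TPM for each transcript, and the annotation is named both as mm10 and as a GENCODE release of a later build, so no coordinates were taken from the tables. Whether strand was used is not given in the sources used here, so antisense and overlapping genes cannot be told apart.

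The counts of a gene's transcripts were added and rounded to whole numbers. Genes passing filterByExpr (minimum count 10, minimum total 15) were fitted with edgeR (4.0.16, R 4.3.3) by the quasi-likelihood test with TMM factors, all groups of an organ in 1 fit, or all 20 libraries for comparisons between organs. P-values were adjusted by Benjamini-Hochberg over all genes tested, with a threshold of 0.05. DESeq2 (1.42.0), limma voom (limma 3.58.1), counts scaled from TPM, no filter, the compared groups only, vehicle libraries of the same time point, a replicate block and fits leaving out each library were tried. Depth was 11968500 to 26895318 reads per library.

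The members and lists were chosen with earlier results of these data known. Named were 15 collagens of types I, III, IV, V, VI, XIV, XV and XVIII, every member called in a comparison, the 5 with the largest fold toward each organ, and called genes of 6 lists (folding, cross-linking, breakdown, receptors, fibril partners, basement membrane partners). Col8a1, Col12a1 and Col13a1 were named after their values were seen. The 31 chain ratios were tested by exact permutation over libraries. Start windows came from RefSeq.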

Additional observations from a re-analysis of the deposited data

Results flagged for a closer look

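Of 47 sets of 4 control libraries examined, 1 held a library apart from the rest. The summed level of the 4 transmembrane collagens in kidney was 2.75 CPM in vehicle replicate 2 of 10 weeks and 3.36 to 3.45 CPM in the other control libraries. The gap to the nearest library was 0.874 of the whole range, above Dixon's critical value for 4 samples. Chance flags about 1 in 20 such groups.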

How the results depend on the processing

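The number of members called varied with the setting. DESeq2 gave 9 in treated kidney against control, 12 in treated against recovered kidney, 7 in recovered liver against control and 5 in treated against recovered liver (3.51%, 5.62%, 2.85% and 4.55% of all genes). Without a filter the counts were 6, 9 and 2 for the first 3 of these, and 1 in recovered kidney (3.77%, 6.07%, 0.84% and 0.633% of all genes). Counts scaled from TPM gave 0 in treated kidney, 2 in treated against recovered kidney, 0 in treated liver and 1 in treated against recovered liver (2.51%, 5.0%, 0.252% and 1.12% of all genes). In treated liver limma voom and vehicle libraries of the same time point gave 0 (0.199% and 0.171% of all genes). The compared groups alone gave 2 in treated liver and 0 in treated against recovered liver (2.66% and 0.237%). A fit without the liver libraries that carried kidney RNA, chosen after seeing the data, left 1 recovery library, so only its differences are given. Without TMM factors, also chosen after seeing the data, Col14a1 between organs turned to 0.32. In TPM the basement membrane sum moved to 0.0725 and the Col4a1 over Col4a2 ratio to -0.10. The cause was not tested.

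Leaving out 1 library gave 1 to 6 members in treated kidney, 2 to 13 in treated against recovered kidney, 0 in recovered kidney, 0 in treated liver, 0 to 9 in recovered liver, 0 to 8 in treated against recovered liver, 18 to 21 between organs and 0 for the organ difference. Over all genes the shares called ranged from 2.33% to 4.29%, 3.83% to 7.67%, 0% to 1.41%, 0.0965% to 0.242%, 0% to 13.6%, 0.109% to 13.9%, 58.9% to 59.6% and 0.0655% to 0.182% in the same order. The Col4a1 over Col4a2 ratio ranged from -0.018 to 0.11, Col6a3 over Col6a1 from -0.48 to 0.0945, both changing sign without kidney treatment replicate 1, and the fibrillar and basement membrane log2 ratios from 0.46 to 1.84 and from 0.24 to 0.34.

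Replicate numbers were not taken to pair the libraries, since the labels do not name the animals. Deviations from the group means correlated above 0.1 in 1 of 18 same-numbered pairs within an organ (-0.172 to 0.141). Across organs 0 of 9 pairs did so (-0.054 to 0.05). Low correlations cannot show that same-numbered organs came from different animals. With a replicate block 2 members were called in treated kidney, where Col4a2 (adjusted p = 0.0693) and Col6a2 (0.0538) lost the call and Col4a3 (0.0341) gained it, 5 in treated against recovered kidney, with Col6a5 in place of Col4a2 (0.0591), 1 in treated liver, 2 in treated against recovered liver and 19 between organs. Of all genes 3.23%, 6.2%, 0.282%, 1.52% and 58.8% were called with the block, in the same order. Depth limited the 12 members below the filter.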
